A study of Homo sapiens with 8 samples.

Results

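The genes described here are 10 markers of the epithelial and the mesenchymal cell state, CDH1, EPCAM, KRT7, KRT8, KRT18 and KRT19 on the epithelial side and CDH2, VIM, ZEB1 and SNAI2 on the mesenchymal side. They were taken by symbol from a table of 65572 RefSeq transcripts. The 10 markers have 58 rows there, and for each the row with the highest mean was kept, which leaves 10 of 27946 genes. The values are FPKM, fragments per kilobase of transcript scaled to the reads of the library, in EA.hy926, an immortalized hybrid line made by fusing human umbilical vein endothelial cells with cells of a lung carcinoma. After removal of ribosomal RNA, total RNA was sequenced in 2 control libraries, in 3 libraries of lines without the enhancer E2 (ΔE2) and in 3 of lines without SE12313-b (ΔSE12313-b), a constituent of the same super-enhancer, SE12313, that the study used as its negative control. Both elements were removed with Cas9 ribonucleoprotein. Each deletion line was grown from a single cell, the labels call all 8 samples clones, and the study describes control cells, for its growth assay, as having received guides and been grown beside the clones, without saying whether they were cloned. Effects of a deletion and of cloning can therefore not be told apart, and p-values measure the spread between these lines and libraries. The sources do not say whether the 2 control libraries came from separate lines. Spread between control lines may thus be missing from the p-values.

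Epithelial cells hold to each other through E-cadherin (encoded by CDH1) and EpCAM (EPCAM), and their simple epithelial filaments pair a type II keratin (KRT7, KRT8) with a type I keratin (KRT18, KRT19). Mesenchymal and endothelial cells build filaments of vimentin (VIM) instead, and N-cadherin (CDH2) takes the place of E-cadherin in many of them. ZEB1 and SLUG (SNAI2) are zinc finger repressors that bind E-boxes in epithelial promoters, and ZEB1 and the microRNAs of the miR-200 family repress each other.

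As the recovered read numbers showed, there were 12067557 and 12696194 reads per control library, 13616429 to 19101213 per ΔE2 library and 14814166 to 16085497 per ΔSE12313-b library. The 2 control libraries differed by little more than counting noise (chi-square per degree of freedom 1.18), whereas pairs of ΔE2 lines gave 3.83 to 19.5 and pairs of ΔSE12313-b lines 8 to 21.7. The endothelial origin of the line was visible in all libraries, with a summed FPKM of 10 endothelial markers of 299 to 300 in the control, 316 to 489 in the ΔE2 lines and 327 to 441 in ΔSE12313-b (8 of 10 tested, CLDN5 without a read in any library, CDH5 at 64.3 to 141 FPKM). The markers did not move one way. PECAM1 and ERG were called higher in both deletions (PECAM1 at 1.11 and 2.10 on the log2 scale, ERG at 1.25 and 1.09). ESAM was called higher in ΔE2 (1.08), VWF was called lower in both (-1.72 and -1.80), and KDR had 4 to 29 reads. With each library centred on its median log2 ratio, ERG alone was called higher in ΔE2 and PECAM1 alone in ΔSE12313-b. Quantile normalization gave the same calls, and VWF stayed lower in both deletions under both. Of 10 markers of alveolar epithelium and lung adenocarcinoma 3 were tested and 3 had no read, NKX2-1 among them, with sums of 5.65 to 5.77, 3.20 to 5.59 and 2.55 to 3.73 FPKM. Of 8 markers of fibroblasts and smooth muscle 1 was tested (ACTA2), DCN had no read, and the sums were 5.20 to 6.69, 0.701 to 2.06 and 1.01 to 1.81 FPKM. Of 6 leukocyte markers 1 was tested (CD68), PTPRC had 1 read in all, and the sums were 28.1 to 29.8, 24.3 to 24.7 and 36.0 to 40.5 FPKM. The part of other cells in the results below was not tested.

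**Figure D1:**
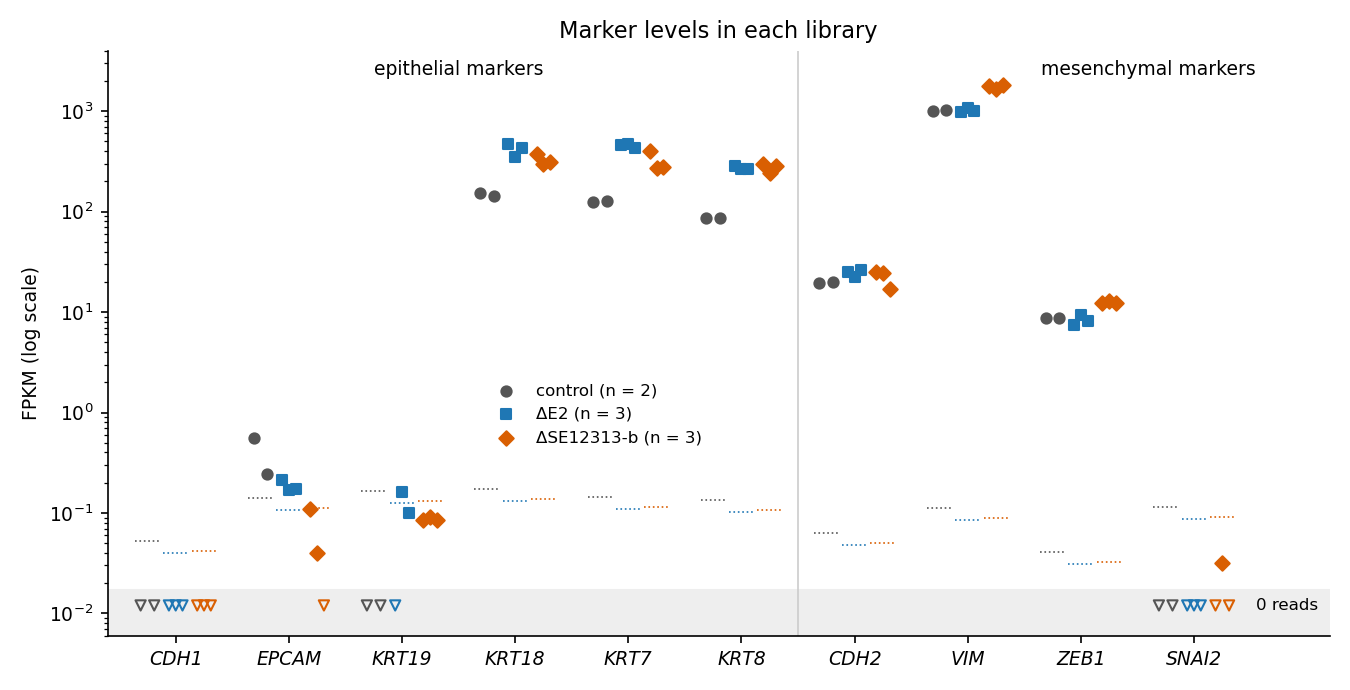
FPKM of the 10 markers in each of the 8 libraries on a log scale, epithelial markers on the left and mesenchymal markers on the right. Each point is 1 library, open triangles in the grey band are libraries without a read, and dotted lines give the FPKM of 3 reads as the mean of the group. VIM stood highest in every library, KRT7, KRT8 and KRT18 followed, and CDH1 had no read in any library.

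Taken by level, the cells carried RNA for filament proteins of both states and, of the marker cadherins, for CDH2 and not CDH1. CDH5, the endothelial cadherin, stood above CDH2 in every library (64.3 to 141 against 16.8 to 26.3 FPKM). Endothelial cells also use VIM and CDH2, so these levels do not tell a mesenchymal from an endothelial state. VIM ranked between 15 and 30 among all genes in the 8 libraries. KRT18 and KRT7 came next, followed by KRT8, CDH2 and ZEB1, and CDH1, EPCAM, KRT19 and SNAI2 stayed at or below 0.554 FPKM. In the control KRT18 (144 and 152 FPKM), KRT7 (124 and 129) and KRT8 (86.0 and 87.3) did not overlap. In ΔE2 KRT7 and KRT18 overlapped with each other and both lay above KRT8, and in ΔSE12313-b KRT7 overlapped with both other keratins. FPKM is per length, so these orders compare levels between genes.

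Of the 10 markers 6 passed the filter for testing, which asked for 0.5 FPKM or more in no fewer than 2 libraries (CDH2, KRT7, KRT8, KRT18, VIM and ZEB1), as did 13790 genes in all. The test was limma on log2(FPKM + 0.1) with Benjamini-Hochberg adjustment over these genes, and a gene was called where the adjusted p was under 0.05 and the change no smaller than 2-fold. In ΔE2 3 of the 6 markers were called, all of them higher than in the control, beside 19.6% of all genes tested called in either direction and 11.2% called higher. In ΔSE12313-b it was again 3 of 6, all higher, beside 22.6% in either direction and 14.7% higher. Without the 2-fold limit 3 of the 6 passed in ΔE2, beside 54.1% of all genes, and 5 of the 6 in ΔSE12313-b, beside 59.4%, so the count without that limit lay close to the background in ΔE2. The median log2 fold change of the 6 was 0.90 in the ΔE2 lines and 0.96 in ΔSE12313-b, that of all genes tested 0.14 and 0.27. Between the deletions 0 of the 6 were called by limma, beside 4.23% of all genes, and 3 passed the adjusted p alone, beside 26.0%.

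**Figure D2:**
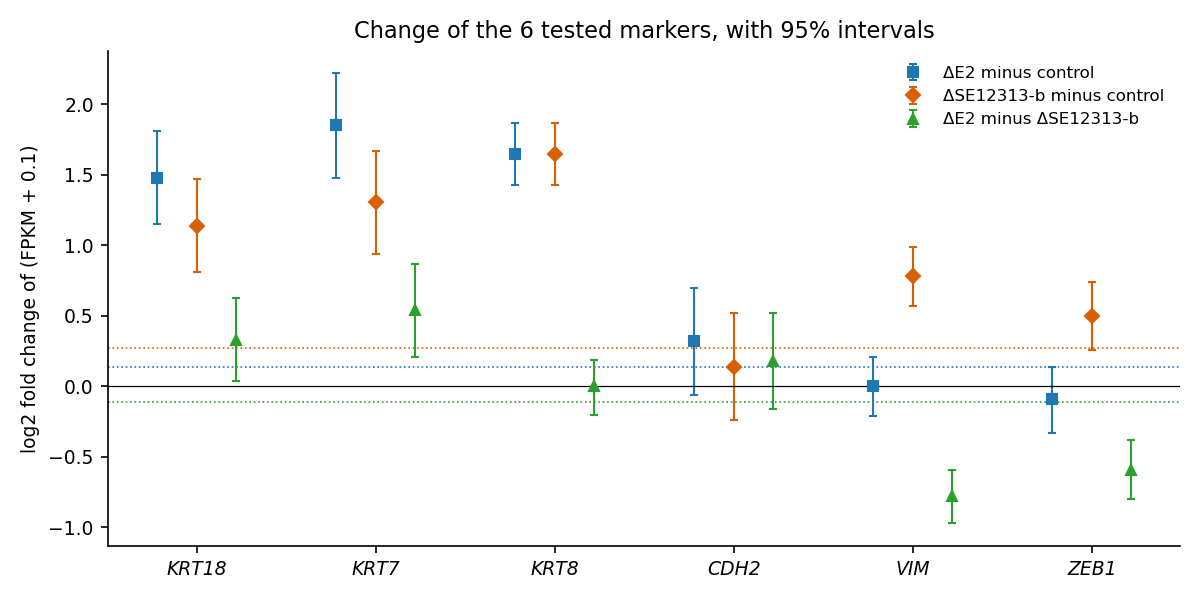
Log2 fold change of FPKM + 0.1 for the 6 tested markers in ΔE2 against control, in ΔSE12313-b against control and between the deletions, with 95% intervals from limma. Dotted lines mark the median of all 13790 genes in each comparison (0.14, 0.27 and -0.11). The keratins lay above 1 in both deletions, and the intervals of VIM and ZEB1 lay above 0 in ΔSE12313-b and reached across it in ΔE2, with the difference between the deletions at -0.78 for VIM and -0.59 for ZEB1.

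The keratins were the markers that rose in both deletions. KRT7, a type II keratin of simple glandular and ductal epithelia, stood at 124 and 129 FPKM in control cells, at 458, 472 and 435 in the ΔE2 lines and at 401, 270 and 281 in ΔSE12313-b. In such bulk RNA, more cells of a type and more RNA per cell cannot be told apart, nor can fewer and less. All 6 deletion lines lay above both controls, and all ΔE2 lines lay above all ΔSE12313-b lines. On the log2 scale KRT7 rose by 1.85 in ΔE2 (SE 0.16, 3.60-fold, adjusted p = 5.59e-05 by limma) and by 1.31 in ΔSE12313-b (SE 0.16, 2.47-fold, adjusted p = 0.000249 by limma). The difference of 0.54 between the deletions (SE 0.14, adjusted p = 0.0270 by limma) passed the adjusted p and not the 2-fold limit. It was lost in 7 of the 8 fits without 1 library, with values of 0.44 to 0.57 and adjusted p of up to 0.0756, and was kept without the first ΔSE12313-b line, the highest of its group.

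KRT8, the type II partner of KRT18 and among the first keratins of the embryo, stood at 86.0 and 87.3 FPKM in control cells, at 284, 264 and 268 in the ΔE2 lines and at 295, 242 and 282 in ΔSE12313-b. The deletions overlapped fully with each other and lay above both controls. Its rise was 1.65 in ΔE2 (SE 0.09, 3.14-fold, adjusted p = 6.35e-06 by limma) and 1.65 in ΔSE12313-b (SE 0.09, 3.14-fold, adjusted p = 5.41e-06 by limma), with a difference of 0.00 between them (95% interval -0.20 to 0.19).

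KRT18, the type I partner, stood at 152 and 144 FPKM in control cells, at 467, 348 and 433 in the ΔE2 lines and at 373, 299 and 315 in ΔSE12313-b. Again no deletion line reached down to the controls, and the second ΔE2 line lay within the range of ΔSE12313-b. The rise was 1.48 in ΔE2 (SE 0.14, 2.78-fold, adjusted p = 9.69e-05 by limma) and 1.14 in ΔSE12313-b (SE 0.14, 2.21-fold, adjusted p = 0.000279 by limma). The difference of 0.33 between the deletions (95% interval 0.04 to 0.63, adjusted p = 0.0902 by limma) did not pass, but passed without the second ΔE2 line (0.46, adjusted p = 0.0234 by limma), with centring (0.46, adjusted p = 0.0387 by limma) and with quantile normalization (0.46, adjusted p = 0.0277 by limma).

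The size of the keratin rise depended on how libraries were scaled. With each library centred on its median log2 ratio, KRT7 rose by 1.69 in the ΔE2 lines and by 1.02 in ΔSE12313-b, KRT8 by 1.49 and 1.36 and KRT18 by 1.32 in ΔE2, while KRT18 in ΔSE12313-b came to 0.86 (adjusted p = 0.00174 by limma), under the 2-fold limit. With quantile normalization KRT8 alone was called in ΔSE12313-b, at 1.11, beside 20.3% of all genes tested. KRT7 and KRT18 came to 0.79 and 0.64, both still higher and past the adjusted p. Over all genes the balance of directions turned with centring, from 1544 higher and 1153 lower to 1170 higher and 1464 lower in ΔE2, and from 2032 and 1080 to 1201 and 1570 in ΔSE12313-b.

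KRT7, KRT8 and KRT18 lie within 1 band, 12q13.13 (GRCh37), at 52626954 to 52642709, 53290971 to 53298868 and 53342655 to 53346685 on chromosome 12, KRT8 on the minus strand and the other two on the plus strand. The 445 other protein-coding genes of 12q with a mean FPKM of at least 1 had a median log2 fold change of 0.22 in the ΔE2 lines and 0.43 in ΔSE12313-b, against 0.19 and 0.35 over all 10772 such genes. KRT8 lay above 93.7% of the genes of the arm in the ΔE2 lines and above 93% in ΔSE12313-b. The 3 keratins thus changed by more than most genes around them. KRT7 overlaps an antisense gene, KRT7-AS, that had at most 3 reads in any library. Rows of pseudogenes that could share reads with the keratins were low (KRT8P41 up to 0.586 FPKM, KRT18P55 up to 0.06).

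KRT19, the smallest type I keratin, had no read in the control, 0, 4 and 2 reads in the ΔE2 lines and 2, 2 and 2 in ΔSE12313-b. All 8 libraries were at or near 3 reads, which correspond to 0.11 to 0.17 FPKM, so no fold change is given. In a fit without the filter (17896 genes) its adjusted p was 0.118 in the ΔE2 lines and 0.0755 in ΔSE12313-b by limma. KRT18 was thus the type I keratin of the pair with measurable RNA.

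**Figure D3:**
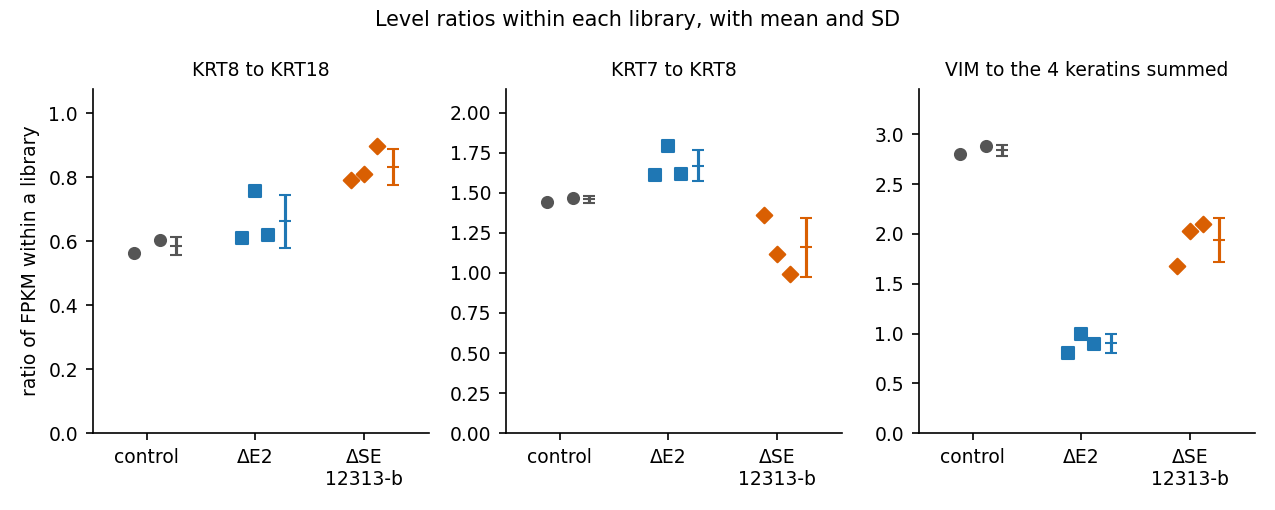
Ratios of FPKM within each library for KRT8 to KRT18, KRT7 to KRT8 and VIM to the sum of KRT7, KRT8, KRT18 and KRT19. Points are libraries, and bars beside them give the mean and SD of the group. VIM exceeded the keratin sum by 2.80 to 2.88 times in the control, was below it in ΔE2 (0.81 to 0.998) and exceeded it by 1.68 to 2.10 times in ΔSE12313-b.

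Ratios within a library do not depend on its scaling. The ratio of KRT8 to KRT18 was 0.585 ± 0.0278 (SD, n = 2) in control cells, 0.662 ± 0.0833 (SD, n = 3) in the ΔE2 lines and 0.832 ± 0.0568 (SD, n = 3) in ΔSE12313-b. All 3 groups were apart, by little between control and ΔE2 (0.605 against 0.609 at the nearest). KRT7 to KRT8 was 1.44 and 1.47 in the control, 1.61 to 1.79 in the ΔE2 lines and 0.996 to 1.36 in ΔSE12313-b, so the type II keratins shifted towards KRT7 in the ΔE2 lines and towards KRT8 in ΔSE12313-b. Among the marker keratins, summed type II (KRT7, KRT8) to summed type I (KRT18, KRT19) was 1.44 ± 0.0814 (SD, n = 2), 1.77 ± 0.292 (SD, n = 3) and 1.79 ± 0.0749 (SD, n = 3). Other keratins of either type were not in these sums. The 4 keratins together came to 361 ± 1.19 FPKM (SD, n = 2) in control cells, 1143 ± 63.2 (SD, n = 3) in the ΔE2 lines and 920 ± 134 (SD, n = 3) in ΔSE12313-b. No test was run on these ratios, and with 2 against 3 libraries an exact permutation test could not pass the threshold. The ratio of CDH2 to CDH1 could not be formed, because CDH1 was at 0.

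The cell surface markers of epithelia did not follow the keratins. CDH1 (chromosome 16, 68771193 to 68869445, plus strand, GRCh37), the cadherin of epithelial junctions, had 0 reads in all 8 libraries, over all 4 of its rows. A count of 0 allows up to 0.054 FPKM in control cells, 0.048 in the ΔE2 lines and 0.044 in ΔSE12313-b, with 3 reads per library as the limit. At this depth no difference in CDH1 was detectable, and this limit, like the intervals below, covers counting error only.

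EPCAM, an adhesion molecule of simple epithelia (chromosome 2, 47596287 to 47614167, plus strand), had 12 and 5 reads in the control, 7, 5 and 4 in the ΔE2 lines and 3, 1 and 0 in ΔSE12313-b. Every ΔSE12313-b line lay below both controls, and so did every ΔE2 line by FPKM (0.171 to 0.215 against 0.243 and 0.554). Per library read the control held 2.14 times as many EPCAM reads as ΔE2 (exact 95% interval 1.02 to 4.52) and 8.03 times as many as ΔSE12313-b (2.62 to 32.8). It was under the filter, and in the fit without the filter it was called lower in ΔSE12313-b (-1.73, SE 0.38, adjusted p = 0.00700 by limma) and not in ΔE2 (-0.73, SE 0.38, adjusted p = 0.155 by limma). These values leaned on the first control library, which held 12 of the 17 control reads. Without it, a comparison added after seeing the data, the read ratios fell to 1.29 (0.37 to 3.69) and 4.85 (1.04 to 24.4), and EPCAM in ΔSE12313-b no longer passed (-1.26, adjusted p = 0.0581 by limma). Without the first ΔSE12313-b line the ratio rested on 1 read of that group and came to 21.1 (3.3 to 881), and without the third it was 5.3 (1.73 to 21.7). The interval for ΔE2 also took in 1 without any single ΔE2 line.

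On the mesenchymal side VIM and ZEB1 were higher in ΔSE12313-b, and neither passed the test in ΔE2. VIM, the main intermediate filament of endothelial and mesenchymal cells, stood at 1013 and 1038 FPKM in control cells, at 980, 1082 and 1015 in the ΔE2 lines and at 1795, 1646 and 1845 in ΔSE12313-b. ΔE2 and control overlapped, and all ΔSE12313-b lines lay above all other libraries. The log2 fold change was 0.00 in ΔE2 (95% interval -0.21 to 0.21, adjusted p = 0.995 by limma) and 0.78 in ΔSE12313-b (SE 0.09, 1.72-fold, adjusted p = 0.000193 by limma), which is under the 2-fold limit. Between the deletions it was -0.78 (SE 0.08, adjusted p = 0.000937 by limma).

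ZEB1, the repressor of epithelial genes, stood at 8.74 and 8.80 FPKM in control cells, at 7.42, 9.29 and 8.06 in the ΔE2 lines and at 12.2, 12.8 and 12.3 in ΔSE12313-b. As with VIM, the ΔSE12313-b lines lay above all other libraries, and ΔE2 surrounded the control. The change was -0.09 in ΔE2 (SE 0.10, adjusted p = 0.477 by limma), 0.50 in ΔSE12313-b (SE 0.10, 1.41-fold, adjusted p = 0.00369 by limma) and -0.59 between the deletions (SE 0.09, adjusted p = 0.00346 by limma). All 41 of its rows gave like values, 0.49 to 0.52 in ΔSE12313-b and -0.10 to -0.06 in ΔE2. Its antisense neighbour ZEB1-AS1 was lower in both deletions than in the control, with 2.82 and 2.40 FPKM in control cells, 0.986, 1.26 and 1.45 in the ΔE2 lines and 1.31, 1.61 and 2.14 in ΔSE12313-b. The library kit keeps the strand, but the sources do not say whether the table does, so reads of the shared stretch cannot be assigned.

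Scaling changed the comparison of VIM and ZEB1 with the control more than their comparison between the deletions. With each library centred, VIM in ΔSE12313-b came to 0.49 (adjusted p = 0.00197 by limma) and ZEB1 to 0.21 (adjusted p = 0.101 by limma). With quantile normalization VIM came to 0.13 (adjusted p = 0.233 by limma) and ZEB1 to 0.17 (adjusted p = 0.202 by limma), and in ΔE2 both came out lower than in the control, at -0.37 and -0.30 (adjusted p = 0.00867 and 0.0377 by limma). Between the deletions both differences passed the adjusted p in all 19 alternatives, from -0.83 to -0.50 for VIM and from -0.68 to -0.46 for ZEB1.

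VIM (17270209 to 17279596, plus strand, GRCh37) and ZEB1 (31609042 to 31818742, plus strand) lie on the same chromosome arm, 10p, and the other genes of that arm were higher in ΔSE12313-b as well. The 89 other protein-coding genes of 10p with a mean FPKM of at least 1 had a median log2 fold change of 0.81 in ΔSE12313-b, against 0.35 over all 10772 such genes. In ΔE2 their median was 0.18, against 0.19. Within ΔSE12313-b VIM lay above 46.1% of the genes of the arm and ZEB1 above 21.3%, while over all genes they lay above 75.2% and 59.9%. In each of the 3 lines the median of the arm, relative to that of all genes, was 0.46 to 0.49, against -0.05 to -0.03 in the ΔE2 lines. VIM itself, on the same scale, was at 0.45, 0.35 and 0.50 in the 3 lines, and ZEB1 at 0.11, 0.20 and 0.14. VIM thus lay near the median of its arm and ZEB1 below it. Genes within 5 Mb of VIM (27 genes) had a median of 0.83 and those within 5 Mb of ZEB1 (22 genes) one of 0.86. The part of the arm in the change of VIM and ZEB1 was not tested.

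**Figure D4:**
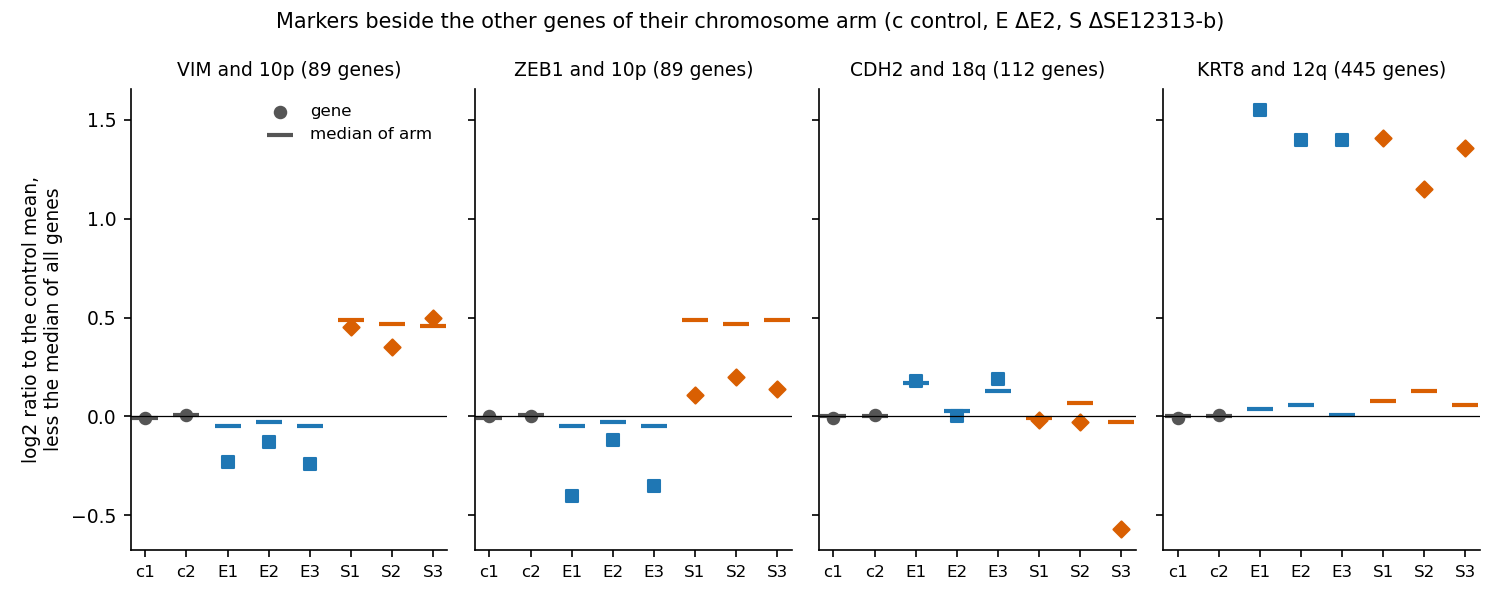
Log2 ratio to the control mean, relative to the median of all genes in the library, for VIM, ZEB1, CDH2 and KRT8 (points) and for the median of the other protein-coding genes of their chromosome arm (bars) in each library. In ΔSE12313-b the bars of 10p lay at 0.46 to 0.49, with VIM close to them and ZEB1 below, whereas KRT8 lay far above the bars of 12q in all 6 deletion lines.

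CDH2, the N-cadherin of mesenchymal and endothelial cells (chromosome 18, 25530927 to 25616549, minus strand), stood at 19.4 and 19.9 FPKM in control cells, at 24.9, 22.6 and 26.3 in the ΔE2 lines and at 24.9, 24.3 and 16.8 in ΔSE12313-b. The ΔE2 lines and 2 of the ΔSE12313-b lines lay above both controls, and the third ΔSE12313-b line lay below them. The change was 0.32 in ΔE2 (SE 0.17, 95% interval -0.06 to 0.70, adjusted p = 0.135 by limma) and 0.14 in ΔSE12313-b (SE 0.17, adjusted p = 0.488 by limma). Without the third ΔSE12313-b line both came to 0.32 and passed the adjusted p (0.0133 and 0.0176 by limma), so whether CDH2 passed the adjusted p turned on 1 library, and it was under the 2-fold limit with and without it. Relative to all genes CDH2 was at -0.03 to 0.19 in the other 5 deletion lines and at -0.57 in that line, where the median of the 112 other genes of 18q was -0.03.

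SNAI2, the other repressor, had 1 read in all, in the second ΔSE12313-b line. The limit of 3 reads corresponds to 0.075 to 0.12 FPKM in these libraries. ZEB1 was thus the repressor of this pair with measurable RNA, and no difference in SNAI2 was detectable at this depth.

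Promoter windows were available from RefSeq (GRCh38.p14, 250 bases before to 50 after a start site) for 4 of the 10 markers, VIM, ZEB1, KRT8 and CDH2, with 11 windows in all. Those nearest to the rows used are printed here because VIM and ZEB1 moved together in ΔSE12313-b and CDH2 has a pair of start sites with different sequences, and each matched GRCh37 at 1 place. The VIM window is chr10:17227991-17228290 (plus strand), and the row used starts 31 bases before its start site. The ZEB1 window is chr10:31319518-31319817 (plus strand), and the row used starts 345 bases after its start site. For CDH2 the far window is chr18:28177081-28177380 and the near one chr18:28036592-28036891 (both minus strand), and the row used starts 56 bases after the near start site. There, 4 motifs were searched on both strands, the E-box CACCTG (bound by ZEB1 and SLUG), the AP-1 site TGANTCA, the GC box GGGCGG and the TATA box TATAAA. Capitals mark every match.
VIM: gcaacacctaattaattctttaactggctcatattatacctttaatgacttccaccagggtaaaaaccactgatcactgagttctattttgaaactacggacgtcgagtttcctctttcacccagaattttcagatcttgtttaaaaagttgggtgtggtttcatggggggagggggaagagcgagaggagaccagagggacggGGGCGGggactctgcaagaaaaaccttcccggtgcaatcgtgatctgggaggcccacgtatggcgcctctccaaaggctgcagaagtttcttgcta
ZEB1: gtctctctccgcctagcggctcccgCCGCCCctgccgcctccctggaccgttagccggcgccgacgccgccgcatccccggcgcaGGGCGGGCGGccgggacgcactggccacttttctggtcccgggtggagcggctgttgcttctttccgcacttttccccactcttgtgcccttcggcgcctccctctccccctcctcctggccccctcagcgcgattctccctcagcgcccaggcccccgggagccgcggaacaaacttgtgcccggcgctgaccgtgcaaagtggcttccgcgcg
CDH2 far window: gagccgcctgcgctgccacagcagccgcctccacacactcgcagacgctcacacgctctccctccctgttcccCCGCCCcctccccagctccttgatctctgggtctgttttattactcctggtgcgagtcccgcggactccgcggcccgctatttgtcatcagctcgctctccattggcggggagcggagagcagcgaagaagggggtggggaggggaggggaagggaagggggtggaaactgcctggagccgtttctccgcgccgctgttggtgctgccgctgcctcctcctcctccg
CDH2 near window: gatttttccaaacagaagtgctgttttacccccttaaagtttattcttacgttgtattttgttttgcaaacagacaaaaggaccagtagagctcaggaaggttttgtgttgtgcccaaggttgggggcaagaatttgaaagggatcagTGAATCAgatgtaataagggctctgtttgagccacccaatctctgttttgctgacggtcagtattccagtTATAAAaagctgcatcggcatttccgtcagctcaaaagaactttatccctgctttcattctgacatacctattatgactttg
The VIM window held 1 GC box, 46 bases before the start site, the ZEB1 window 3 GC boxes, of which a pair overlap, and the far CDH2 window 1. The near CDH2 window held an AP-1 match and a TATA box at -102 and -32 and no GC box. Of all 35116 windows 45% held a GC box, 20.6% the E-box, 7.71% the AP-1 site and 11.5% the TATA box. The E-box was in none of the windows printed, and was found in 2 of the other ZEB1 windows, chr10:31318966-31319265 at 3 places and chr10:31318167-31318466 at 1. G+C content was 72.3% in the ZEB1 window, 67% in the far and 40.7% in the near CDH2 window and 48% in that of VIM, against a median of 58.7%. Both rows of CDH2 gave the same change in ΔE2 (0.32). The KRT8 window belongs to a start site 21385 bases upstream of the row used and is not printed. A match is a description of the letters and not a binding site.

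The genes around these markers were counted in lists. Over all genes tested 19.6% were called in ΔE2 and 22.6% in ΔSE12313-b, with 11.2% and 14.7% called higher. Of 28 epithelial junction and surface genes 11 were tested and 9 had no read in any library. In ΔE2 2 were called higher and 3 lower, and in ΔSE12313-b 4 higher and 0 lower, with medians of -0.05 and 0.10 against 0.14 and 0.27 over all genes. CGN (cingulin, of tight junctions) stood at 0.093 and 0.131 FPKM in control cells, at 1.06, 1.37 and 0.853 in the ΔE2 lines and at 1.77, 1.90 and 1.57 in ΔSE12313-b, a rise of 2.48 and 3.13 (adjusted p = 0.000124 and 2.91e-05 by limma). PKP2 and PKP3, plakophilins of desmosomes, were called in ΔSE12313-b (1.11 and 1.01). In ΔE2 they passed the adjusted p at 0.90 and 0.76, under the 2-fold limit, and neither difference between the deletions passed. With centring they were called in neither deletion. Under it CLDN1 and TJP3, called lower in ΔE2 (-1.54 and -1.48), were called lower in ΔSE12313-b too. CGN passed the filter through the deletion lines alone and TJP3 through the control alone. Against the control, calls of CGN could thus only be higher and those of TJP3 only lower. PPL (periplakin) separated the deletions, with 2.93 and 3.25 FPKM in control cells, 0.008, 0.038 and 0.035 in the ΔE2 lines and 1.59, 1.57 and 3.67 in ΔSE12313-b. Its change was -4.66 in ΔE2 (SE 0.38, adjusted p = 4.23e-05 by limma) and -4.12 between the deletions (adjusted p = 0.000433 by limma). PPL had 1, 4 and 3 reads in the ΔE2 lines, so the added 0.1 FPKM limits both values, which understate the change. Periplakin links desmosomes to intermediate filaments, those of keratin and vimentin included.

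Among 22 epithelial regulators 3 were tested and 4 had no read. AP1M2, the sorting adaptor of epithelial cells, was called higher in both deletions, with 3 reads in the control against 75 in the ΔE2 lines and 84 in ΔSE12313-b, which is 12.4 times (exact 95% interval 4.09 to 61.6) and 14.8 times (4.90 to 73.3) as many per library read. LSR, of tricellular junctions, was called in ΔSE12313-b (1.69, adjusted p = 0.000600 by limma) and passed the adjusted p in ΔE2 at 0.94. AP1M2 and LSR passed the filter through the deletion lines alone, so a call against the control could only be higher. Genes of the list too low to be tested went both ways. ESRP2 had 9 and 12 reads in the control and 1 to 7 in the deletion lines, and ST14 had 3 and 4 against 6 to 18. Of 15 other keratins 3 were tested and 5 had no read. In either deletion 0 of them were called higher, beside 11.2% and 14.7% of all genes tested. KRT15 was called lower in ΔSE12313-b (-1.30, adjusted p = 0.000418 by limma), from a control mean of 20.9 FPKM to 7.03, 8.96 and 9.53, and KRT80 passed the adjusted p at 0.92 in both deletions without reaching 2-fold. All 6 hairpins of the miR-200 family and miR-205 in the table had 0 reads in all libraries. Libraries of this kind hold few small RNAs, so the mature microRNAs were not measured.

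**Figure D5:**
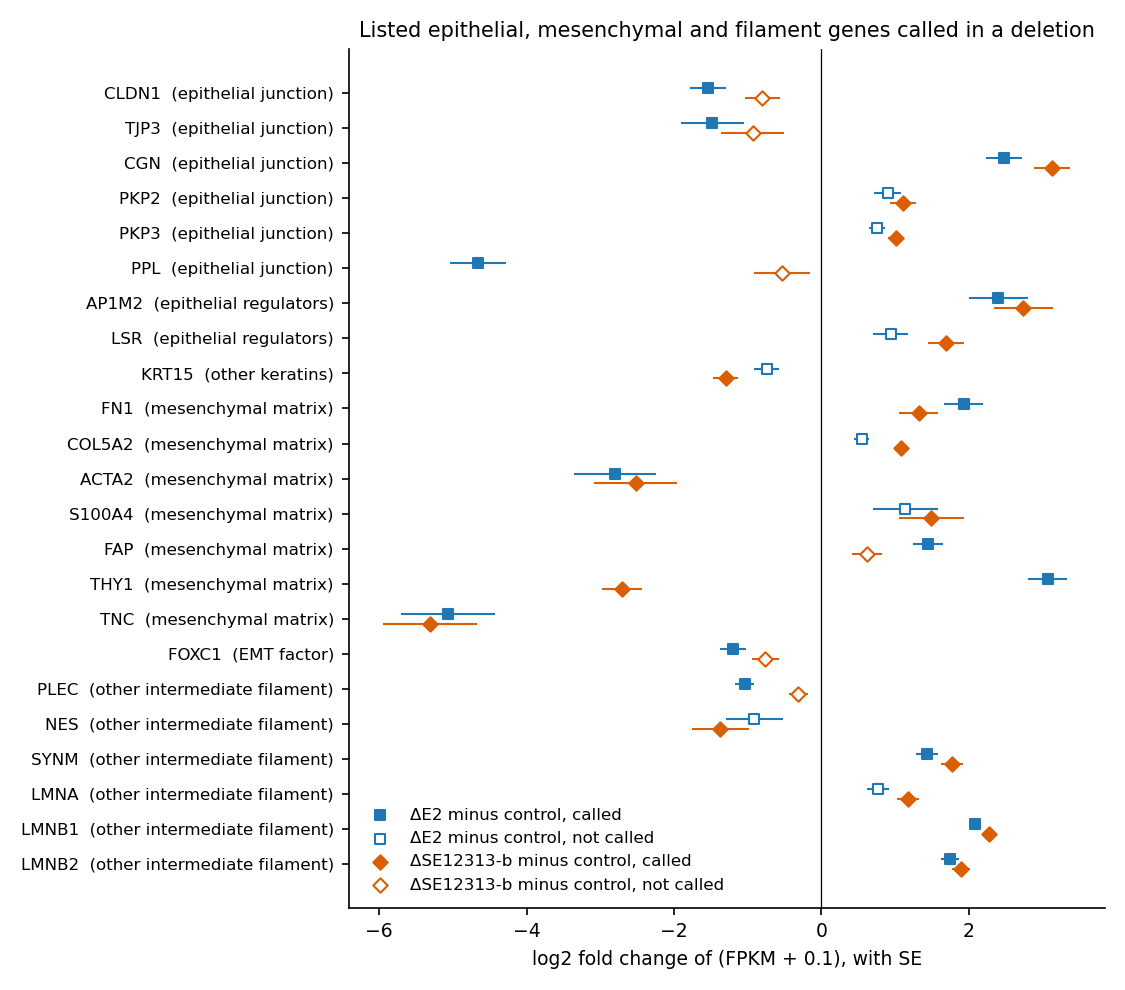
Log2 fold change with SE of each gene of the epithelial, keratin, mesenchymal, transcription factor and filament lists named here that was called in ΔE2 or ΔSE12313-b, with filled symbols for calls. TNC lay at -5.07 and -5.31, CGN at 2.48 and 3.13, and THY1 on opposite sides of 0; THY1 had no read in ΔSE12313-b, so its fitted value there is no measure of size.

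Of 30 mesenchymal genes 16 were tested and 4 had no read. In ΔE2 3 were called higher and 2 lower, and in ΔSE12313-b 3 higher and 4 lower, beside 19.6% and 22.6% of all genes tested. The medians were 0.71 and 0.50, against 0.14 and 0.27 over all genes. FN1 (fibronectin) rose in both deletions, from 2.46 and 2.27 FPKM to 10.6, 6.07 and 12.4 in the ΔE2 lines and 5.93, 5.79 and 6.46 in ΔSE12313-b (1.93 and 1.32, adjusted p = 0.000559 and 0.00315 by limma). TNC (tenascin C), a matrix protein of wounds and tumours, fell in both, from 8.32 and 8.84 FPKM to at most 0.403 (-5.07 and -5.31, adjusted p = 0.000377 and 0.000232 by limma), and ACTA2 (smooth muscle actin) fell from 6.27 and 4.91 FPKM to at most 1.61. THY1, a surface protein of fibroblasts and activated endothelium, went in opposite directions, with 0.421 and 0.724 FPKM in control cells, 4.96, 5.84 and 5.39 in the ΔE2 lines and no read in any ΔSE12313-b line. With 3 reads per library as the floor it was at least 6.12-fold lower in ΔSE12313-b than in the control and at least 57.7-fold lower than in ΔE2, and in ΔE2 it rose by 3.07 (adjusted p = 6.23e-05 by limma). Without the ΔE2 lines, where it was high, THY1 would not have passed the filter. FAP was called higher in ΔE2 (1.45), and COL5A2 and S100A4 higher in ΔSE12313-b (1.08 and 1.49), which centring ended.

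Other transcription factors of the epithelial-mesenchymal transition were counted in the same way. Of 14 in the list 8 were tested and 3 had no read. In either deletion 0 were called higher by limma, beside 11.2% and 14.7% of all genes tested. FOXC1 was called lower in ΔE2 (-1.20, adjusted p = 0.000945 by limma). In ΔSE12313-b FOXC1 passed the adjusted p at -0.76 (adjusted p = 0.00775 by limma), and was called lower with centring but not with quantile normalization. Its difference between the deletions did not pass (adjusted p = 0.0806 by limma). By the adjusted p alone 4 of the 8 passed in ΔE2, close to the 54.1% of all genes tested. TCF4 was among them, higher than in the control by 0.71 (adjusted p = 0.0249 by limma) and higher than in ΔSE12313-b by 0.87 (adjusted p = 0.0149 by limma). In ΔSE12313-b only SNAI1 (0.50, adjusted p = 0.0150 by limma) and FOXC1 passed, beside 59.4% of all genes tested. SNAI1 stood at 4.12 and 3.02 FPKM in the control and 4.31 to 5.15 in the deletion lines, and ZEB2, the relative of ZEB1, at 5.15 and 5.39 in the control, 6.97, 6.02 and 8.0 in the ΔE2 lines and 4.95, 5.78 and 5.02 in ΔSE12313-b. Of 9 catenins and cadherins 6 were tested. In either deletion 0 were called, beside 19.6% and 22.6% of all genes tested, which for 6 genes is close to the background. CTNNB1 (β-catenin), which ties cadherins to actin, passed the adjusted p at 0.50 in the ΔE2 lines and 0.65 in ΔSE12313-b, and CDH5, the endothelial cadherin and the most abundant one tested here, had 103 ± 0.310 FPKM (SD, n = 2) in control cells, 99.2 ± 36.8 (SD, n = 3) in the ΔE2 lines and 77.3 ± 14.4 (SD, n = 3) in ΔSE12313-b.

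The remaining list held other genes of intermediate filaments and their linkers. Of 9 in the list 6 were tested and 2 had no read. In ΔE2 3 were called higher and 1 lower, and in ΔSE12313-b 4 higher and 1 lower, beside 19.6% and 22.6% of all genes tested. The medians were 1.10 and 1.48, against 0.14 and 0.27 over all genes. LMNB1, a lamin of the nuclear envelope, rose from 14.3 and 14.1 FPKM to 60.6, 58.6 and 63.5 in the ΔE2 lines and 71.3, 65.1 and 70.3 in ΔSE12313-b (2.09 and 2.27, adjusted p = 4.73e-07 and 3.77e-07 by limma), and LMNB2 rose by 1.75 and 1.90. SYNM (synemin), which assembles with vimentin, rose by 1.44 and 1.77. PLEC (plectin), the linker of intermediate filaments to junctions, fell in ΔE2 from 130 and 125 FPKM to 72.0, 51.5 and 64.3 (-1.04, adjusted p = 0.000423 by limma) and stood at 105, 108 and 95.8 in ΔSE12313-b, which did not pass (adjusted p = 0.0767 by limma). NES (nestin) was called lower in ΔSE12313-b (-1.37). In ΔE2 it came to -0.91, which did not pass, and was called lower with centring. Its difference between the deletions did not pass (adjusted p = 0.373 by limma). NES passed the filter through the control alone, so a call against the control could only be lower. LMNA was called higher in ΔSE12313-b (1.18), but not with centring, and passed the adjusted p in ΔE2 at 0.77.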

How the data were processed

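The members and gene lists were chosen with earlier results of these data known. Per the labels, total RNA of EA.hy926 (control, n = 2; ΔE2, n = 3; ΔSE12313-b, n = 3) was depleted of ribosomal RNA, made into libraries with a directional kit and sequenced single-end. The submitters' processing notes name Trim Galore 0.4.4, STAR 2.5.4b and GRCh37, and the methods allow a read up to 10 places. The authors deposited FPKM per RefSeq transcript. The tool and the strand setting behind these values are not given in the sources used here. FPKM times transcript length gave whole reads for 100% of the values checked, within 0.1 read, and these reads served for depth (12067557 to 19101213 per library), for limits of 3 reads and for 1 alternative. The study's own calls used counts that were not used here.

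For each symbol the row with the highest mean FPKM was kept, and genes with at least 0.5 FPKM in at least 2 libraries were tested with limma 3.58.1 (R 4.3.3) on log2(FPKM + 0.1), with the 3 groups in 1 linear model, empirical Bayes with a variance trend, two-sided tests and Benjamini-Hochberg adjustment. A fold change on this scale understates changes of low genes. Intervals of read ratios are exact (Clopper-Pearson, scipy 1.17.1). The comparison with chromosome arms used protein-coding genes averaging 1 FPKM or more and was a description. The steps were tested on simulated data. Named genes are the 10 markers and, of each list, up to 3 called genes per direction and deletion. Some genes counted in the lists are not reported here by name. KRT80, SNAI1, ZEB2, TCF4, CTNNB1, CDH5 and the other endothelial markers were named after their values were seen. Alternatives were pseudocounts of 0.01 and 1, no filter, a filter on the mean (1 FPKM), centring, quantile normalization, a replicate block, each library left out, no variance trend, only the groups compared, the longest transcript, voom on the recovered reads and a 1.5-fold limit. Sequences are those of RefSeq (GRCh38.p14).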

Additional observations from a re-analysis of the deposited data

Results flagged for a closer look

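There were 3 markers of the 6 tested that differed between the deletions by the test of the difference itself, which does not use the control libraries for its means. By the same adjusted p 26.0% of all genes tested passed. With the 2-fold limit 0 of the 6 were called, beside 4.23% of all genes. VIM was lower in ΔE2 than in ΔSE12313-b by a log2 difference of -0.78 (adjusted p = 0.000937 by limma), with all 3 ΔE2 lines below all 3 ΔSE12313-b lines. ZEB1 was lower by -0.59 (adjusted p = 0.00346 by limma), again in 3 of 3 lines. Both lie on 10p, whose other genes had a median difference of -0.61 between the deletions, against -0.13 over all genes, and the part of the arm in the difference was not tested. KRT7 was higher in ΔE2 by 0.54 (adjusted p = 0.0270 by limma), in 3 of 3 lines. Without any single ΔE2 line the KRT7 difference did not pass (adjusted p of up to 0.0756 by limma).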

How the results depend on the processing

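The number of markers called stayed at 3 in ΔE2 against control under every alternative. Beside it, 12.5% (pseudocount 1) to 20.9% (without the second ΔE2 line) of all genes were called at the 2-fold limit. In ΔSE12313-b the number was 1 with quantile normalization and 2 with centring. It was 4 without the filter (EPCAM) and with a 1.5-fold limit (VIM), and 3 otherwise. All genes were called at 20.3% with quantile normalization and at 20.1% both with centring and without the filter. With quantile normalization the 1 call among 6 markers thus lay near the background. Shares at a 1.5-fold limit were not counted. Between the deletions the number of markers called was 2 with a 1.5-fold limit and 0 otherwise. With each library left out it ranged from 3 to 3 against the control and from 0 to 0 between the deletions. Same-numbered libraries did not deviate together (correlations of -0.08 to 0.11), so the numbers do not pair the samples, and with the replicate block the counts were 3, 3 and 0, with no call of a marker changed.

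Of the fold changes of the 6 tested markers under an alternative, 13 changed sign, 11 lost the threshold and 8 gained it, while 310 did neither. The sign of CDH2 in ΔSE12313-b turned with centring (-0.15) and quantile normalization (-0.27), and its difference between the deletions ranged from 0.00 (without the third ΔSE12313-b line) to 0.28 with a library left out. KRT8 between the deletions, 0.00 in the report, came to 0.13 with centring, 0.12 with quantile normalization and 0.00 with the longest transcript, and ranged from -0.09 to 0.06 with a library left out. VIM in ΔE2 ranged from -0.04 to 0.03 with a library left out. KRT18 between the deletions passed the adjusted p with centring and quantile normalization (both 0.46) and without the second ΔE2 line. The cause was not tested. Depth limits CDH1, EPCAM, KRT19 and SNAI2, which have at most 12 reads in a library.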
